A study of Mus musculus with 6 samples.

Results

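The genes described here are 46 interferon-induced antiviral effector genes, taken by name from a list. The list was chosen with earlier results of these data known, so counts set beside shares of all genes are descriptive and not independent support. All 46 were found among the 32179 genes that the deposited table lists. They were measured by bulk RNA sequencing in vascular smooth muscle cells sorted as viable EGFP-positive cells from skeletal muscle of male C57BL6J mice aged 8 to 24 weeks. There were 3 libraries from tamoxifen-induced controls and 3 from iSM-G5C-KO mice given the same induction, whose smooth muscle was depleted of Gprc5c, an orphan receptor gene. All animals carried the mTmG reporter, which turns on EGFP where Cre has recombined, and every source label names Gprc5c-floxed mice, although the controls' genotype label reads wild type. Values are listed in the order of the library numbers 1, 2 and 3. The labels used here name neither the promoter that drives Cre nor whether each library came from a separate animal. P-values therefore measure the spread between these libraries, which may be technical.

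Type I interferons bind a receptor found on nearly all cells. Its JAK kinases activate a complex of transcription factors that includes IRF9 and binds a DNA element, the interferon-stimulated response element (ISRE), near the start of many genes. The products of these genes bind or cut viral RNA, block viral entry and release, attach the ubiquitin-like protein ISG15 to other proteins, and amplify the response through IRF7. Many are also made at a low level without infection. In a bulk sample, more cells of a responding type and more RNA per cell cannot be told apart.

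The estimated depth was 1476432 to 2935114 reads per library. Control library 3 stood apart with 29707 genes above 0, against 20481 to 21179 in the other libraries. Gprc5c, the targeted gene, had normalised counts of 428, 532 and 497 among controls against 328, 305 and 360 among KO libraries. Every KO value lay below every control value, and the KO mean was 68.2% of the control mean (log2 difference -0.55, SE 0.13, n = 3 per group, adjusted p = 0.999 with limma, 2-sided exact permutation p = 0.1, the smallest that 3 against 3 libraries allow). With the replicate number as a block in limma, the SE for Gprc5c was 0.1 and the adjusted p 0.142. The smooth muscle genes Myh11 and Acta2 were at 3883 to 4940 and 995 to 1260 in all 6 libraries.

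In the KO libraries, the antiviral genes were higher almost throughout, by amounts that differed between libraries. The KO mean was above the control mean for 45 of the 46 genes, where this held for 32.7% of all listed genes, a share that counts the 7733 genes at a value of 1 in control library 3. Of the 46, 41 had a mean value of at least 10 over all libraries and entered the test. In 40 of these 41 the difference of mean log2(value + 1), the scale of all log2 differences below, was positive, against 50.2% of the 12735 genes tested. The median difference was 0.70, and 0.00 over all tested genes. It was 1 or more for 11 genes, against 0.503% of tested genes.

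**Figure D1:**
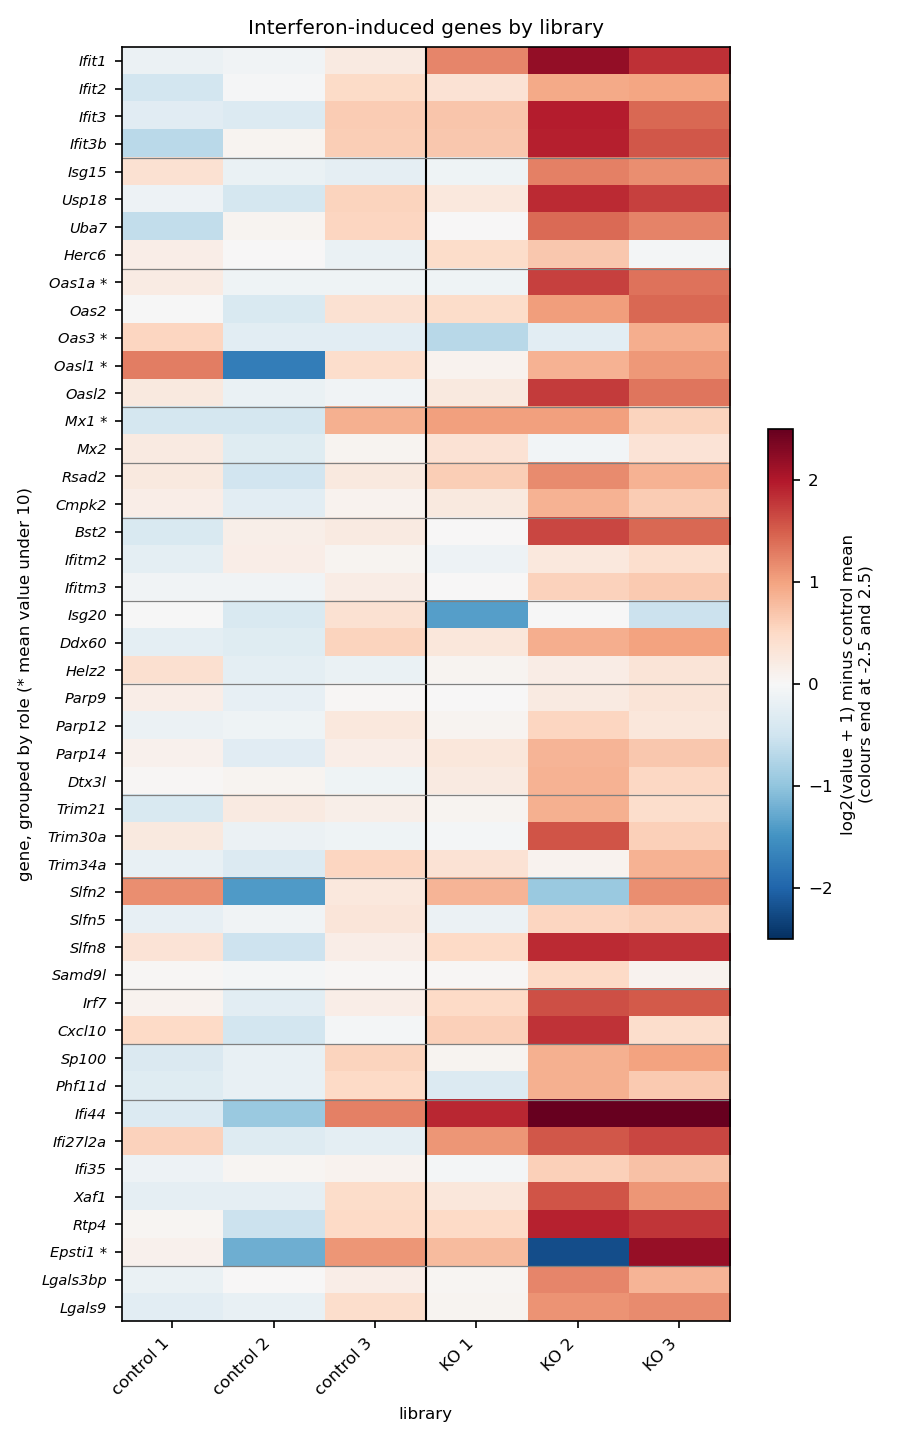
Colour map of all 46 genes (rows, grouped by role) in the 6 libraries (columns); colour is log2(value + 1) minus the mean of the 3 controls, red for higher and blue for lower, and stars mark the 5 genes with a mean value under 10. KO libraries 2 and 3 are red in most rows, while KO library 1 is paler and closer to control library 3.

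No single antiviral gene passed the test over all genes. With limma and Benjamini-Hochberg adjustment 0 of 41 had an adjusted p under 0.05, as for all tested genes (0%), and each had an adjusted p of 0.999. At an unadjusted p under 0.05, 21 of 41 were higher and 0 lower, where 1.03% of tested genes were called higher. With the replicate number as a block these were 28 of 41 against 4.29%, and 0 of 41 passed the adjusted test, with adjusted p from 0.115 (Ifit1) to 0.807, against 0.00785% of tested genes. In 12 genes every KO library lay above every control library, and in 0 every KO library lay below, where 2.69% and 2.21% of tested genes did so. Of the 12, Ifi44 had a control mean under 10 and entered the test through its KO values. Without it, 11 of 40 remained.

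These counts depended on single libraries. The unadjusted count of 21 was 6 without KO library 2 (where 0.455% of tested genes were called higher), 10 without KO library 3 (0.534%) and 9 without control library 2 (0.652%). It was 31 without KO library 1 (4.88%). The number without overlap was 12 and can only stay or rise when 1 library is left out. It was 34 without KO library 1 (where 15% of tested genes did not overlap) and 23 without control library 3 (7.15%). Without 1 of the other libraries it was 12 to 17 (4.75% to 6.51%). The direction did not move with them, since 39 or 40 of 41 were higher whichever single library was left out, with medians from 0.53 to 0.96.

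Compared by replicate number, the difference was present in all 3 pairs of libraries and small in the first. The labels do not say what the number marks. Between the libraries numbered 1, 32 of 41 genes were higher in the KO library, with a median log2 difference of 0.21, and 3 genes reached a difference of 1. Between those numbered 2, all 41 were higher with a median of 1.21, and 25 reached 1. Between those numbered 3, 40 were higher with a median of 0.63, and 11 reached 1. Over all tested genes the share higher was 43.9%, 48.5% and 51.2%, and the share at 1 or more was 1.13%, 3.43% and 1.52%. A total of 32 genes were higher in all 3 pairs, where 14% of tested genes were. In a blocked fit on numbers 1 and 3 alone, the median over the 41 genes was 0.44.

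**Figure D2:**
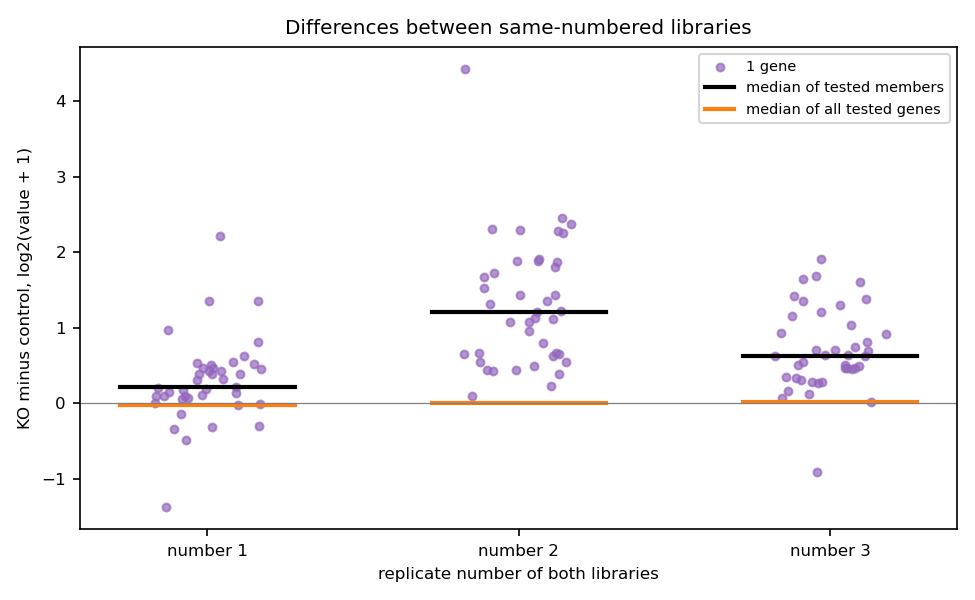
Log2 difference between the KO and the control library of the same replicate number (vertical axis) for numbers 1, 2 and 3 (horizontal axis); each point is 1 of the 41 tested genes, black lines are their medians (0.21, 1.21 and 0.63) and orange lines the medians of all tested genes. The points of number 1 lie closest to the line of no difference.

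Set against the control mean, the median gene stood at -0.10, -0.19 and 0.23 among controls against 0.25, 0.94 and 0.87 among KO libraries. KO library 1 was thus at the level of control library 3, and the other KO libraries stood above all controls. The highest of the 6 values was in KO library 2 for 25 genes, in KO library 3 for 12, in KO library 1 for 1 and in a control library for 3, a tie of Slfn2 being counted to the control. Within groups, the median SD of log2 values was 0.35 for controls and 0.50 for KO libraries, against 0.22 and 0.25 over all tested genes, so these genes also varied more between replicates than the median gene.

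Genes of the IFIT proteins, which bind viral RNA and hinder its translation, were higher in all 3 pairs for each of the 4 genes. Ifit1 had normalised counts of 26, 27 and 34 among controls against 68, 135 and 105 among KO libraries. Every KO value lay above every control value. The log2 difference was 1.74 with an SE of 0.27, and 1.35, 2.28 and 1.6 for numbers 1, 2 and 3. Ifit3 measured 27, 26 and 52 among controls against 54, 133 and 92 among KO libraries (log2 difference 1.37, SE 0.38). Its neighbour Ifit3b was at 8, 14 and 21 against 22, 54 and 41 (1.39, SE 0.44). The groups stayed apart in both genes, by only a few counts between control library 3 and KO library 1. Ifit2 was at 60, 81 and 115 against 106, 159 and 164 (0.76, SE 0.27), and control library 3 lay above KO library 1.

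All 4 genes lie in 1 cluster on chromosome 19 (GRCm38), from Ifit2 at 34550710 to the end of Ifit1 at 34650009, on the plus strand. Ifit3 and Ifit3b are near-identical copies. In GENCODE vM21 transcripts, 51.2% of the 50-base words of Ifit3 also occur in Ifit3b, so their separate values are uncertain.

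The stretches upstream of the Ifit genes show the element through which the interferon-activated complex is known to act. Promoter windows came from RefSeq (GRCm38.p6), 250 bases before to 50 after a start, and matched 38 of the 46 genes by symbol. The core of the ISRE was searched as GAAA, any 2 bases and GAAA again, on both strands, so that it reads TTTC, any 2 bases and TTTC when it lies on the other strand. Overlapping matches were each counted. It was found in 18 of the 38 genes (47.4%), in 3.68% of the 9359 tested genes with a window, and in 3.44% of all 32851 windows. Below are the 250 bases upstream of the start for Ifit1, Ifit3 and Ifit3b, 5′ to 3′ on the gene's strand, with each match in capitals.
Ifit1 (chr19:34640639-34640888, plus strand): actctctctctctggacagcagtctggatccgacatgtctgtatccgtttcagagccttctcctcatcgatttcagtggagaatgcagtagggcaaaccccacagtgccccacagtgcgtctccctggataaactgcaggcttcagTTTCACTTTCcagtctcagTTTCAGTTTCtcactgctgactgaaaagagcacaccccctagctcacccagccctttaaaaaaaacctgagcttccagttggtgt
Ifit3 (chr19:34583279-34583528, plus strand): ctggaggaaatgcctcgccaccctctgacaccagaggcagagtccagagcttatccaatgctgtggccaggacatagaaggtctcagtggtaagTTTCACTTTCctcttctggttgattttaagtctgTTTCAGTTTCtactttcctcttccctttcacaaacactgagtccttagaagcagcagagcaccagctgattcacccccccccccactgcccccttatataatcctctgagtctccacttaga
Ifit3b (chr19:34607707-34607956, plus strand): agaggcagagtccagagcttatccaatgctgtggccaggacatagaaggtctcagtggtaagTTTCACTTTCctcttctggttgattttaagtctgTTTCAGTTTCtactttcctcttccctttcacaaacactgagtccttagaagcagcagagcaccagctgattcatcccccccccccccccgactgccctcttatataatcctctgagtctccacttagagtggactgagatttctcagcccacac
Each of these holds 2 matches, whose first bases are 104 and 85 bases before the start in Ifit1, 156 and 122 in Ifit3, and 188 and 154 in Ifit3b. With the first matches aligned and no gaps, 86.2% of 218 bases are identical between Ifit3 and Ifit3b. The window of Ifit2 held no match, which says only that these letters are not in it.

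**Figure D3:**
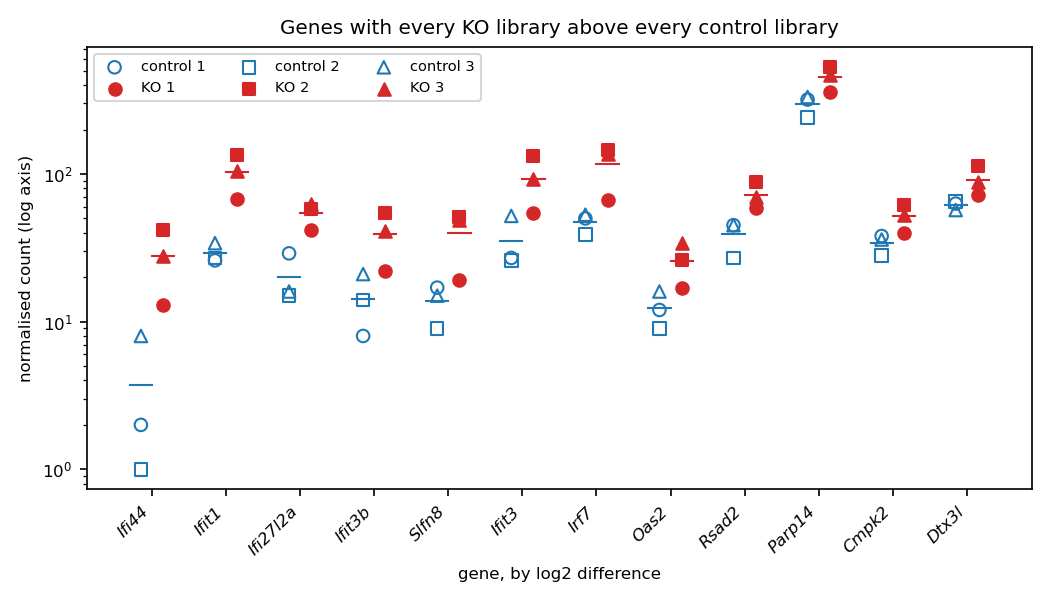
Normalised counts (log axis) of the 12 genes in which every KO library (filled red) lies above every control library (open blue), ordered by log2 difference; circles, squares and triangles are libraries 1, 2 and 3 and short lines are group means. Circles of KO library 1 are usually the lowest red symbols and lie close to the highest control.

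Of 4 genes of the ISG15 system, 3 were higher in all 3 pairs and 0 without overlap. ISG15 is attached to proteins by the activating enzyme UBA7 and, in mice, the ligase HERC6, and is removed by USP18, which also restrains the interferon receptor. Usp18 measured 19, 15 and 31 among controls against 25, 78 and 70 among KO libraries (log2 difference 1.28, SE 0.47). KO library 1 lay inside the control range, and KO libraries 2 and 3 were above the highest control. Isg15 itself, given here after its values were seen, was at 37, 25 and 24 against 26, 69 and 64 (0.77, SE 0.39). Its difference was -0.49 for number 1 and 1.43 and 1.38 for numbers 2 and 3, so the first pair had the opposite sign. Uba7 averaged 83.0 ± 32.0 and 160.0 ± 71.3 (SD, n = 3 each) and Herc6 26.0 ± 3.0 and 34.3 ± 8.62, with log2 differences of 0.89 and 0.36.

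The Isg15 promoter is shown because it carries 3 overlapping matches to the ISRE core, starting 78, 72 and 66 bases before the start, in 1 run of capitals.
Isg15 (chr4:156200819-156201068, minus strand): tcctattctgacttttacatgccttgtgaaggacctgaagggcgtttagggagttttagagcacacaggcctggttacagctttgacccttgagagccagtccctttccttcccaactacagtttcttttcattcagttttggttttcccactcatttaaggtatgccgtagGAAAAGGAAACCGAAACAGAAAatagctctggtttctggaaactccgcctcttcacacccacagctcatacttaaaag

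The OAS family makes short oligoadenylates that activate the RNA-cutting enzyme RNase L. Oas2 measured 12, 9 and 16 among controls against 17, 26 and 34 among KO libraries, with no overlap but only 1 count between the groups (log2 difference 0.98, SE 0.36). Oasl2, an OAS-like protein, was at 51, 38 and 40 against 51, 146 and 109 (1.11, SE 0.37). KO library 1 equalled control library 1, and the other KO libraries were higher than any control. Oas1a, Oas3 and Oasl1 had mean values under 10 and were not tested. Their values ran from 1 to 15 in controls and from 2 to 13 in KO libraries, and 57.6% of the 50-base words of Oas1a occur in other Oas1 genes. Of these low genes, Oas1a and Oas3 hold the ISRE core, shown here in 30-base windows.
Oas1a (chr5:120907526-120907555, minus strand): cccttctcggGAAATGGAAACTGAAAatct
Oas3 (chr5:120777715-120777744, minus strand): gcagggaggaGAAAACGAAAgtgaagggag

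The MX proteins are dynamin-like GTPases that trap viral components. Mx2 measured 85, 59 and 76 among controls against 94, 69 and 92 among KO libraries (log2 difference 0.21, SE 0.20), and the groups overlapped. Mx1 was at 3 to 9 in controls and 7 to 10 in KO libraries and was not tested.

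Rsad2 encodes viperin, which makes a chain-terminating nucleotide, and its neighbour Cmpk2 encodes a mitochondrial nucleotide kinase. Rsad2 measured 45, 27 and 45 among controls against 59, 88 and 70 among KO libraries (log2 difference 0.89, SE 0.26). Cmpk2 was at 38, 28 and 36 against 40, 62 and 53 (0.58, SE 0.23). Neither gene overlapped between groups, and in both the difference was largest for number 2 (1.67 and 1.12) and smallest for number 1 (0.38 and 0.07). They lie on opposite strands of chromosome 12, 12751 bases apart (26442746 to 26479837). The upstream stretch of Rsad2 holds 1 match, 120 bases before the start, while the Cmpk2 window held none.
Rsad2 (chr12:26456453-26456702, minus strand): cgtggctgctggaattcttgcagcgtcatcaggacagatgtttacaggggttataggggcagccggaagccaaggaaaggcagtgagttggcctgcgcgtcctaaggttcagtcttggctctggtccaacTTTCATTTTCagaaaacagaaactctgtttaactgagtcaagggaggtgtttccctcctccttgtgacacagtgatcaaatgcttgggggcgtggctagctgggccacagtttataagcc

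The 3 genes of antiviral membrane proteins were higher in all 3 pairs, and each overlapped between groups. Bst2 encodes tetherin, which holds budding virus at the cell surface. It measured 22, 32 and 34 among controls against 29, 94 and 80 among KO libraries (log2 difference 1.04, SE 0.43), with KO library 1 inside the control range. IFITM proteins block fusion of virus with the cell. Ifitm3 averaged 164.3 ± 18.8 and 222.0 ± 49.9 (SD, n = 3 each; log2 difference 0.41) and Ifitm2 63.0 ± 8.89 and 72.0 ± 13.7 (0.18). Of the words of Ifitm2, 48.5% occur in other transcripts, so its value is uncertain.

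Of the genes for RNA-acting enzymes, Ddx60, a helicase, measured 44, 42 and 77 among controls against 64, 99 and 106 among KO libraries (log2 difference 0.73, SE 0.29). Control library 3 lay above KO library 1. Helz2, a large helicase and coactivator, averaged 459.0 ± 119 and 514.0 ± 45 (0.19), with the highest of its 6 values, 596, in control library 1. Isg20, an exonuclease, was the only tested gene of the set with a lower KO mean, and is given here for that reason after its values were seen. It was at 12, 9 and 16 against 4, 12 and 8 (-0.64, SE 0.49, unadjusted p = 0.233 with limma), and the groups overlapped.

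The ADP-ribosyltransferase genes Parp9, Parp12 and Parp14 and Dtx3l, the ligase partner of PARP9, differed by moderate amounts. Parp14 measured 319, 241 and 332 among controls against 360, 529 and 471 among KO libraries (log2 difference 0.60, SE 0.19). Dtx3l was at 63, 65 and 57 against 72, 114 and 88 (0.54, SE 0.19). In both, every KO library lay above every control. Parp12 was at 116, 118 and 153 against 134, 186 and 155 (0.29, SE 0.17) and overlapped. Parp9 averaged 253.7 ± 31.3 and 289.0 ± 30.8 (0.19). Parp9 and Dtx3l face away from each other on chromosome 16 and overlap at their starts. Of the 50-base words of Parp9, 7.71% occur in Dtx3l, and of those of Dtx3l, 6.89% occur in Parp9. No source used here says whether counting used strand.

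TRIM proteins are ubiquitin ligases, among them TRIM21, a cytosolic antibody receptor. Trim30a measured 36, 27 and 28 among controls against 29, 91 and 46 among KO libraries (log2 difference 0.70, SE 0.39), a difference carried mainly by KO library 2. Trim21 averaged 49.3 ± 10.8 and 69.3 ± 20.2 (0.47), and Trim34a 32.0 ± 11.4 and 43.3 ± 12.3 (0.44; SD, n = 3 each). Trim34a shares 39.8% of its words with Trim34b and is uncertain.

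The Schlafen genes on chromosome 11 (82952102 to 83070678) lie close together and differed by unequal amounts. Slfn8 measured 17, 9 and 15 among controls against 19, 51 and 49 among KO libraries (log2 difference 1.39, SE 0.44). The groups were apart by 2 counts, between control library 1 and KO library 1. Slfn5 was at 376, 406 and 531 against 393, 625 and 654 (0.33, SE 0.23) and overlapped. Slfn2 averaged 16.0 ± 12.5 and 19.3 ± 11.9 (0.36, SE 0.78), with 4 and 6 in the libraries numbered 2. Samd9l, a growth-restraining gene outside this cluster, averaged 177.3 ± 5.51 and 206.7 ± 38.7 (0.20). Slfn8 and Slfn5 hold a match to the ISRE core, at 48 and 155 bases before the start. They are shown because the genes differed unequally while both hold a match. The Slfn5 match runs straight into a row of A bases, and whether either match acts as the element was not tested.
Slfn8 (chr11:83020839-83020868, minus strand): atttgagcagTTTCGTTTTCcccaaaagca
Slfn5 (chr11:82951937-82951966, plus strand): ccttcaaagtGAAAAAGAAAaaaaaaaaag

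Irf7, the transcription factor that amplifies interferon production, measured 50, 39 and 53 among controls against 67, 146 and 137 among KO libraries (log2 difference 1.22, SE 0.31). All KO values lay above all control values, and the log2 difference was 0.42, 1.88 and 1.35 for numbers 1, 2 and 3. Cxcl10, a chemokine for activated T cells, was at 28, 14 and 19 against 30, 71 and 27 (0.95, SE 0.42). Its difference came mainly from KO library 2, and KO library 3 lay inside the control range. The Cxcl10 window holds the ISRE core 213 bases before the start.
Cxcl10 (chr5:92349083-92349112, minus strand): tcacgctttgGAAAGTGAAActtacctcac

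Further genes of mixed or less settled function included those with the largest difference of all. Ifi44 measured 2, 1 and 8 among controls against 13, 42 and 28 among KO libraries (log2 difference 2.78, SE 0.70), from control values of only a few reads. Ifi27l2a was at 29, 15 and 16 against 42, 58 and 63 (1.44, SE 0.31). Neither overlapped between groups. Rtp4 was at 23, 15 and 32 against 32, 87 and 80 (1.40, SE 0.43), with KO library 1 equal to control library 3. Xaf1, a partner of the apoptosis inhibitor XIAP, averaged 24.3 ± 7.51 and 51.0 ± 21.5 (0.98), and Ifi35 88.7 ± 6.81 and 122.3 ± 32.1 (0.43; SD, n = 3 each). Epsti1 was at 0 to 20 and was not tested.

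The genes of the nuclear proteins SP100, a component of PML bodies, and PHF11D overlapped between groups. Sp100 measured 119, 134 and 226 among controls against 160, 284 and 309 among KO libraries (log2 difference 0.65, SE 0.32). Phf11d averaged 61.3 ± 19.7 and 84.0 ± 33.2 (0.40). Lgals3bp, a secreted galectin-binding glycoprotein, was at 163, 184 and 204 against 188, 428 and 329 (0.70, SE 0.28). Lgals9, a galectin, averaged 98.3 ± 28.4 and 176.7 ± 66.6 (0.79; SD, n = 3 each). In both galectin-related genes KO library 1 was inside the control range and the other KO libraries were above it.

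**Figure D4:**
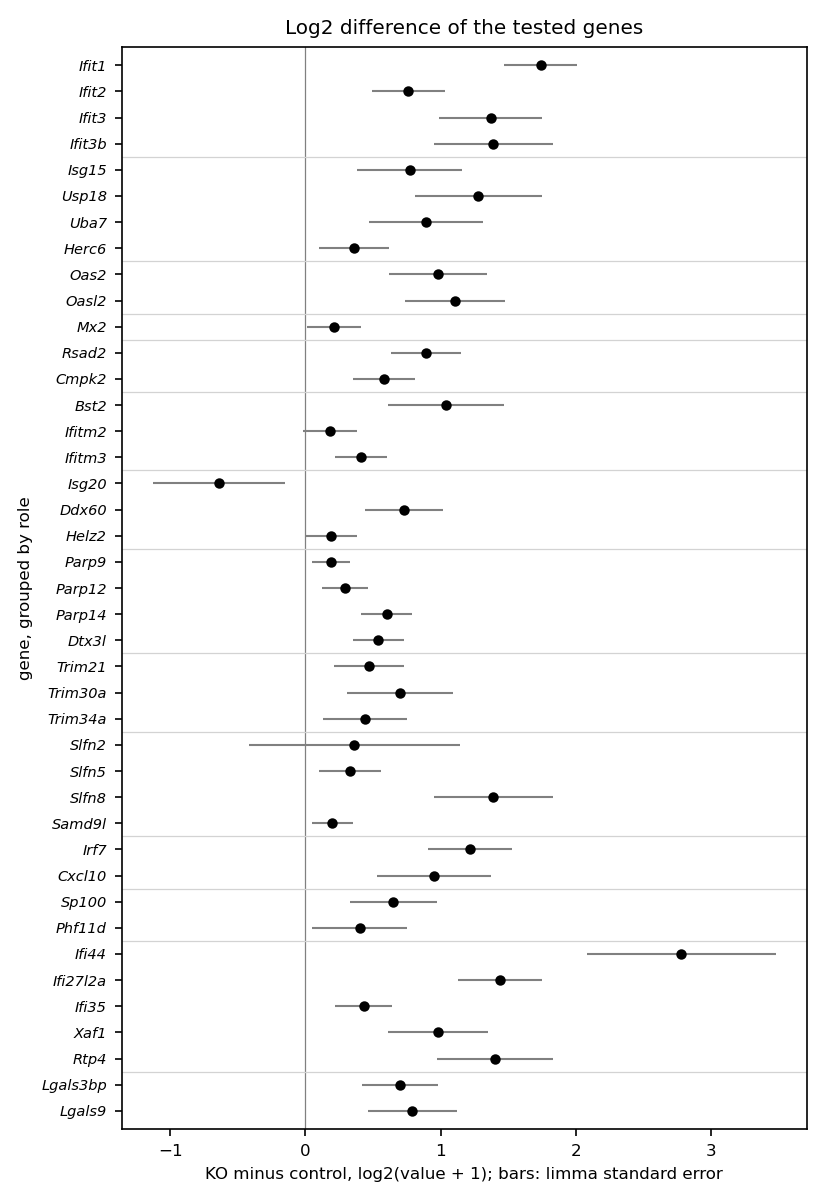
Log2 difference, KO minus control (horizontal axis), of the 41 tested genes grouped by role (vertical axis). Points are limma estimates and bars their standard errors, from the fit without the replicate block. All points but Isg20 lie to the right of 0, from 0.18 to 2.78.

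The set spans a wide range of levels. Per kilobase of exon, control levels ran from 0.598 normalised counts for Ifi44 to 242 for Ifitm3 among tested genes, where the median tested gene of the table was at 20.8. Of the 41, 16 were at or above that median. Across the 41 genes, log2 control level per kilobase and log2 difference had a Pearson correlation of -0.47 (Spearman -0.41). The points share libraries and depth, and the control values enter both measures. The 32 genes with a control mean under 100 had a median difference of 0.84, and the 9 above it 0.33.

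Of the tested genes with a window, the 16 with an ISRE core had a median difference of 0.78 (0.18 to 1.74), and the 18 without it 0.56 (-0.64 to 2.78). The ranges overlapped, and Ifi44 and Irf7 are among those without a match in the window.

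Other genes of the interferon pathway were counted from 7 lists. Of 69 tested genes, 59 were higher and 10 lower in KO libraries, with a median log2 difference of 0.32, and 0 passed the adjusted test with limma. At an unadjusted p under 0.05, 20 were higher and 0 lower, where 1.03% of all tested genes were called higher. The median was 0.01, 0.81 and 0.35 for numbers 1, 2 and 3, and 0.18 without KO library 2. The unadjusted count was 7 without control library 2, 8 without KO library 2, 9 without control library 1, 13 without KO library 3 and 35 without KO library 1.

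Interferon ligands were almost unread. Of 21 ligand genes 6 were listed, each at 0 or 1, and all 6 were at 1 in control library 3. That library had 7733 genes at a value of 1. Ifnb1 was at 0 in every other library. Of 10 tested receptors, JAKs and STATs, 9 were higher. Stat2 differed by 0.52 (SE 0.22) and the receptor chain gene Ifnar1 by 0.17 (SE 0.13). Irf9 differed by 0.45 (SE 0.22) and Irf1 by -0.20 (SE 0.22). Among negative regulators 6 of 7 were lower, with Socs3 at -0.33 (SE 0.16).

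Of 16 sensors of foreign nucleic acid, 15 were higher. Those with the smallest unadjusted p were Ddx58 (RIG-I, log2 difference 0.63, SE 0.15), Ifih1 (MDA5, 0.67, SE 0.20) and Ifi203 (0.46, SE 0.18), and some others of the list had larger differences with larger errors. All 12 tested guanylate-binding and immunity-related GTPases, which attack membranes around intracellular microbes and respond strongly to interferon gamma, were higher. Their median was 1.11, and 11 did not overlap, where 2.69% of tested genes lay higher without overlap. Of the 11, Tgtp2 had a control mean of only 7.7 and entered the test through its KO values, of mean 36.7. Among the 11 were Gbp4 (2.20, SE 0.65), Irgm1 (1.08, SE 0.33) and Iigp1 (1.25, SE 0.40). The pairs of the 12 tested genes differed by 0.54, 2.23 and 0.74. The summed value of the 17 listed genes was 2785 in KO library 2 and 1264 in KO library 3. That of the 46 antiviral genes was nearly the same in these libraries, 6265 and 5865. All 18 genes of MHC class I presentation were higher, with a median of 0.34. For numbers 1, 2 and 3, 7, 18 and 17 of these genes were higher, with medians of -0.06, 0.95 and 0.34. Those with the smallest unadjusted p were H2-T23 (0.89, SE 0.34), Tap1 (0.92, SE 0.36) and Psmb9 (1.25, SE 0.54).

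Markers of immune cells were unequal between libraries. By pair, the leukocyte and neutrophil lists were lowest for number 1, while the macrophage list was highest there. The 10 leukocyte markers summed to 311, 27 and 172 among controls against 180, 33 and 278 among KO libraries, after a depletion of CD31, CD45 and Ter119 cells before the sort. Over the 5 tested markers, the median log2 difference was -0.60, 1.00 and 0.42 for numbers 1, 2 and 3. The value for number 2 rests on low counts, 1 to 9 in control library 2 and 3 to 9 in KO library 2. There, 3 of the 5 were higher. Ptprc, which encodes CD45, was at 72, 1 and 23 among controls against 47, 8 and 43 among KO libraries, and in KO library 2 Cd48, Cd52, Cd53 and Rac2 were at 0. The 11 macrophage markers summed to 210 to 678 in controls and 151 to 629 in KO libraries, with 151 in KO library 2. The medians of the 10 tested macrophage markers were -0.02, -0.7 and -0.28 for numbers 1, 2 and 3. Siglech, of plasmacytoid dendritic cells, was at 0 to 7 in all libraries. The 6 neutrophil markers summed to 252, 5 and 96 among controls against 59, 15 and 289 among KO libraries. The medians of the 4 tested were -2.09, 1.29 and 1.36 for numbers 1, 2 and 3. For number 2 these 4 were at 0 to 5 in the control and 1 to 10 in the KO library. The 8 lymphocyte markers summed to 25, 3 and 18 against 11, 3 and 31. The highest neutrophil and lymphocyte sums were in KO library 3. The part of immune cells in the antiviral difference was not tested.

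The sums of endothelial, muscle fibre and proliferation markers were high in some of the same libraries as the antiviral genes. The 12 endothelial markers summed to 873, 1116 and 1388 among controls against 928, 1762 and 1775 among KO libraries. All 12 had a higher KO mean, with a median log2 difference of 0.31, and none was at 0 in any library. These sums were highest in KO libraries 2 and 3, as the antiviral values were, and the part of endothelial RNA in the antiviral difference was not tested. The 12 skeletal muscle fibre markers summed to 1626, 2699 and 3948 among controls against 2286, 4791 and 9395 among KO libraries, with 5386 of the last from the titin gene Ttn. Neb and Ryr1 were also highest in KO library 3, at 661 and 494, while Acta1, Ckm, Tnnt3 and Mylpf were highest in control library 3. Of the muscle fibre markers 11 of 12 were higher, by a median of 0.26. For numbers 1, 2 and 3 their medians were 0.43, 0.46 and 0.09, with 10, 11 and 7 of 12 higher. Their part in the antiviral difference was not tested. The 15 proliferation markers summed to 246 to 497 in 5 libraries and to 1780 in KO library 2, and were higher in 0 of 11 tested for number 1, 11 of 11 for number 2 and 3 of 11 for number 3. Their part in the difference between the libraries numbered 2 was not tested. The 10 smooth muscle markers summed to 12065, 12414 and 12294 among controls against 12316, 10466 and 11681 among KO libraries, lowest in KO libraries 2 and 3. Of these, 0 of 10 had a positive log2 difference, with a median of -0.13. For numbers 1, 2 and 3 the medians of the smooth muscle markers were 0.01, -0.23 and -0.14, with 6, 1 and 3 of 10 higher. Of 8 pericyte markers all were higher, by a median of 0.18, and of 10 fibroblast markers 1 was higher, with a median of -0.16.

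**Figure D5:**
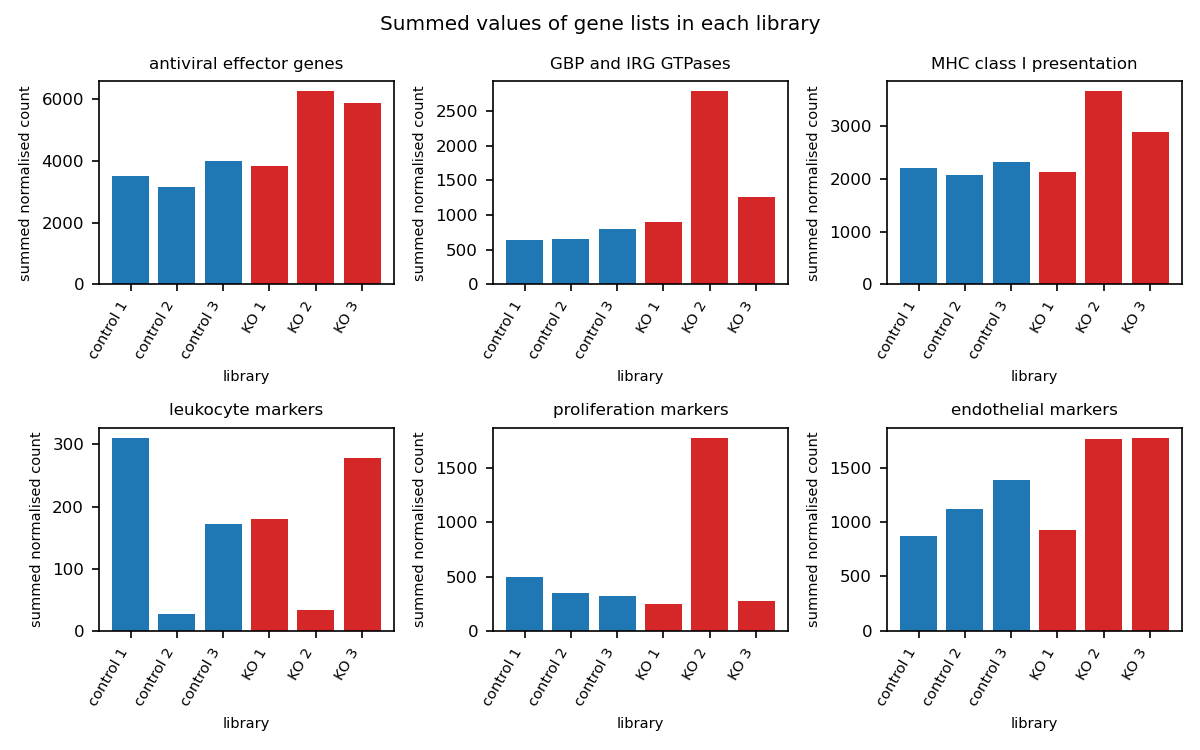
Summed normalised count (vertical axes, each from 0) of 6 gene lists in the 3 control (blue) and 3 KO (red) libraries; there is 1 bar per library and no error bar. The antiviral genes stand at 6265 and 5865 in KO libraries 2 and 3, leukocyte markers at 27 and 33 in the libraries numbered 2, and proliferation markers at 1780 in KO library 2 alone.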

How the data were processed

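A stranded low-input total RNA kit was used on cells sorted after depletion, per the labels' protocols. Per the submitters' processing notes, which give no roles, the tools were DESeq2 1.18.1, featureCounts 1.6.5, STAR 2.6.1d and Trimmomatic 0.39, and the builds mm10 and GRCm38.p5. The deposited values form a score: the authors' normalised counts, rounded to whole numbers, with a single scaling factor for each library. Depth was estimated from the spacing of low values.

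Groups came from the sample descriptions. Values were fitted as log2(value + 1) with limma 3.58.1 in R 4.3.3 (intensity trend, 2-sided) for the 12735 genes with a mean of at least 10, with Benjamini-Hochberg adjustment over all of them (threshold 0.05). The procedure was tested on simulated data with independent replicates, no effect of the replicate number, and changes only in genes of higher value. That test does not cover the pairing of libraries described below or genes of low value. The members and lists were chosen with earlier results of these data known. Values in every library are given for members without overlap between groups and for up to 1 further member per role group with the smallest p. Up to 3 genes per pathway list are named, and Tgtp2 besides. The values of 1 pathway gene are not reported here. Exon lengths and shared 50-base words came from GENCODE vM21.

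Replicates of a group differed beyond counting noise (chi-square per degree of freedom 2.89 to 9.26). Residuals around the group means correlated at 0.586, 0.310 and 0.444 between libraries of the same number and at 0.157 at most between others. The numbers were therefore taken to pair the libraries, from the data and not from a label. Except where a block is named, SEs and p-values come from the limma fit without it, which leaves out this pairing. With the block, the SE was no larger for any tested antiviral gene. It was 0.13 against 0.27 for Ifit2, and 0.23 in both fits for Cmpk2. Alternatives changed the pseudocount, filter, scaling or variance prior, weighted libraries, added the block, or left libraries out.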

Additional observations from a re-analysis of the deposited data

How the results depend on the processing

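Every tested gene of the set kept its direction in all 17 other settings in which it could be fitted, except Slfn2, which was at -0.35 when control library 2 was left out and -0.05 when KO library 3 was. The median stayed between 0.44 and 0.97, and without the filter on low values 44 of 46 genes were higher. That setting also moved the median of all genes to -0.14. The number of changed genes over the whole table, 0, was 1 with the replicate block, 1 in a blocked fit on numbers 1 and 3 alone, 2 with sample quality weights and 61 in a blocked fit on numbers 2 and 3 alone. In the last fit 8 antiviral genes passed the adjusted test (Ifit1, Oasl2, Bst2, Irf7, Ifi27l2a, Rtp4, Lgals3bp and Lgals9) on 4 libraries, and with quality weights 1 did (Ifit1). The unadjusted count of 21 antiviral genes (1.03% of all tested genes were called higher) was 36 with quality weights (8.41%), 33 in the blocked fit on numbers 2 and 3 (5.77%), and 6 to 31 when 1 library was left out (0.455% to 4.88%). The weights were 5.791 for control library 2 and 0.341 to 1.809 for the others. For other pathway genes the 20 became 13 without intensity trend (1.23% of tested genes were called higher) and 43 with quality weights (8.41%). The count was 41 in the blocked fit on numbers 2 and 3 (5.77%), and 7 to 35 with 1 library left out (0.455% to 4.88%). Leaving out 1 library, chosen after seeing the data for this count, gave 12 to 34 antiviral genes without overlap (4.75% to 15% of tested genes). That number can only stay or rise when a library is left out. For each of the other counts the cause was not tested. The replicate block changed no adjusted call of a single antiviral gene. Gprc5c was lower throughout, at -0.69 to -0.42. At this depth, values of a few reads, as for Ifi44 and the untested genes, are the least precise.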

Other observations

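Across the 41 tested antiviral genes, log2 differences of the libraries numbered 2 and 3 correlated at 0.72 (Pearson; Spearman 0.79), those of numbers 1 and 2 at 0.63 and those of numbers 1 and 3 at 0.51. Over all tested genes these Pearson correlations were 0.20, 0.04 and 0.03. The pairs share no library, and genes are not independent replicates.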
